A study of Gallus gallus with 24 samples.

Results

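Genes for the activation and oxidation of fatty acids and for the peroxisome were examined in the abdominal fat of chickens of a fat line (FL) and a lean line (LL). Members were chosen by name, with earlier results of these data known. Every gene of the table was taken whose identifier begins with a listed symbol stem. The stems were those of acyl-CoA synthetases, thioesterases, acyl-CoA dehydrogenases, acyl-CoA oxidases, thiolases, enoyl-CoA hydratases, 3-hydroxyacyl-CoA dehydrogenases, carnitine acyltransferases, peroxins and NUDT7. ACSBG2, ACAD9 and ACADL were added under their protein identifiers. This gave 46 members among the 17934 genes listed. Of the genes added in this way, the study had reported ACSBG2 as differentially expressed and ACAD9 and ACADL as highly expressed in these birds. Shares of members given below that count these genes are therefore not free of that choice. The stems for carnitine palmitoyltransferases, enoyl-CoA isomerases and electron transfer flavoproteins matched no identifier, and the genes of those families that the table holds under other names are described last.

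The study sequenced RNA of abdominal adipose tissue from 8 cockerels at 7 wk, 4 FL and 4 LL, from 2 broiler genotypes that had been selected in opposite directions on abdominal fat weight for 7 generations. Both lines were raised under one standard growth protocol, were fed, and received no agent. The labels mark the 4 birds of a line as biological replicates, here FL1 to FL4 and LL1 to LL4, and each bird's single library was run 3 times; the counts of the 3 runs were summed, so that n = 4 birds in each line. Birds of a line share their selection history, so a difference between lines carries everything in which the 2 closed lines differ.

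A fatty acid is first joined to coenzyme A by an acyl-CoA synthetase. The carnitine shuttle carries acyl groups across mitochondrial membranes, and repeated rounds of dehydrogenation, hydration, oxidation and thiolytic cleavage then shorten the chain in the mitochondrion. Peroxisomes run a parallel pathway, opened by acyl-CoA oxidases, on very-long-chain and branched substrates, and peroxins build the organelle and import its enzymes. In fat tissue these routes stand beside lipid synthesis and storage.

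The birds' summed counts ranged from 4299772 to 10878211 in the FL and from 5548867 to 12876999 in the LL. All 5 matched adipocyte markers were present in every bird, with a summed level of 9713 to 13670 normalised counts (CPM, the count relative to the library total after scaling by the trimmed mean of M-values), as the tissue label would have it. Some birds stood apart. The summed level of 4 matched skeletal muscle markers was 16180 CPM in FL4 and 73.6 to 120.6 in the other 7 birds. The summed level of 8 liver markers was 116.8 CPM in LL2 and 262.3 in LL3, against 5.67 to 13.9 in the other 6, and 4 of the 8 were at 0 in at least 1 bird. Most of the sum was ALB (84.15 CPM in LL2 and 203.8 in LL3). All the listed liver markers but APOA1 were highest in LL3, and APOA1 was lowest there, at 0.316 CPM. Summed leukocyte, endothelial and red cell markers ranged over 4869 to 7402, 3447 to 4427 and 292.7 to 892.5 CPM, with overlapping lines. Most of the leukocyte sum was CD74 (4057 to 6365 CPM), so it says little of the other leukocyte markers. Log2 fold changes (FL minus LL) were 0.164, 0.185 and 0.100 for CD74, CSF1R and LCP1. They were -1.773, -0.584 and -0.053 for MARCO, CD4 and CD3E (lowest edgeR adjusted p of the list 0.364). The first runs of FL4 and LL3 were sequenced with 1 library in a lane, and those of the other 6 birds with 4. Runs 2 and 3 held all 8 libraries in each lane. Chi-square per degree of freedom, near 1 for counting error alone, was 4.88 to 8.025 between run 1 and runs 2 or 3 in the other 6 birds. It was 1.625 to 2.34 in FL4 and LL3, and 0.984 to 1.02 between runs 2 and 3 of a bird. Every bird's sum includes run 1, so values from runs 2 and 3 alone are given where they matter. In bulk tissue, fewer cells of a type and less RNA per cell cannot be told apart.

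Of the 46 members, 40 passed the filter on low counts and were tested among 11187 genes. A gene was called differentially expressed (DE) at an edgeR adjusted p of 0.05 or less and a fold change of at least 1.2. A single member was DE, the NUDT7 feature on unplaced contigs (LL higher), where 0.366% of all genes tested were DE. An unadjusted p under 0.05 was reached by 5 members, or 12.5%, beside 13.1% of all genes tested. Of the 5, 4 were fitted higher in FL birds, as were 726 of the 1467 such genes in the whole table. The lines did not overlap for 4 members, or 10%, beside 8.1% of all genes. By unadjusted p and by non-overlap, the members therefore took a share near that of the whole table. The DE call is not covered by this: 1 of 40 members stood beside 0.366% of all genes, too few to compare shares. The fitted log2 fold change (FL minus LL) was above 0 for 27 of the 40 and below 0 for 13 (67.5% above, beside 50.5% of all genes), with a median of 0.09 beside 0.00 for all genes. With scaling to total counts alone the split was 21 to 19 and the median 0.03, while all genes moved to -0.06. Without FL4, LL2 and LL3 the split was 22 to 18. Other models called more genes and not always the same members. DESeq2 called 2 members (ACOX2 and the unplaced NUDT7 feature) beside 2.85% of all genes, and runs 2 and 3 alone called 1 (ACOX2) beside 1.26%. The 24 runs taken as replicates called 4 of 36 (ACOX2, ACSBG2, PEX11A and NUDT7 on chromosome 11) beside 14%, although runs of 1 library are not separate birds. The unplaced NUDT7 feature did not pass the filter in that last fit and was not tested there.

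**Figure D1:**
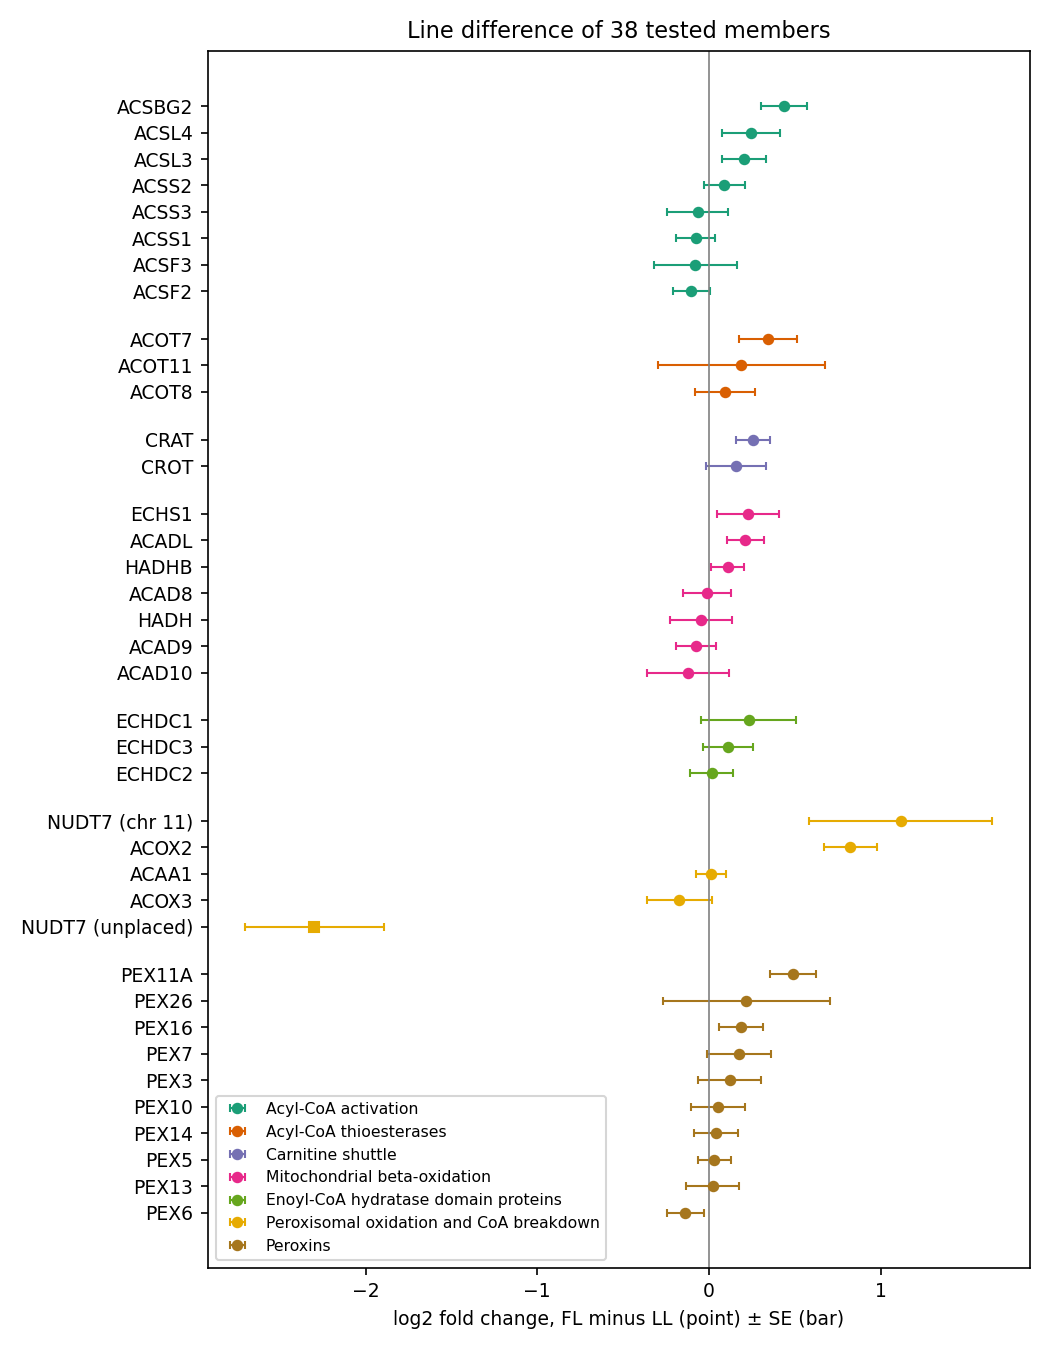
Log2 fold change (FL minus LL, horizontal axis) with its SE (bars) for 38 of the 40 tested members, grouped and coloured by role; the square marks the 1 DE member and circles the others. Most points lie within 0.5 of 0, and the 2 NUDT7 features stand at opposite ends, at -2.30 and 1.12.

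Acyl-CoA activation held 12 members, of which 8 were tested, 4 with a fitted value above 0 and 4 below. The 2 with the highest counts were the acetyl-CoA synthetases ACSS2 (cytosolic and nuclear; chromosome 20, 2632532 to 2663881) and ACSS1 (mitochondrial; chromosome 3, 16758488 to 16776920). ACSS2, one of 4 members among the 900 highest-expressed (HE) genes by counts, averaged 330.1 ± 19.9 CPM in FL birds against 310.5 ± 45.7 in LL birds (SD, n = 4), and ACSS1 averaged 117.5 ± 10.6 and 124.0 ± 16.0. Neither differed between lines beyond the spread of the birds (log2 fold changes of 0.09 and -0.08, edgeR adjusted p = 0.809 and 0.834). In ACSS2, FL2 lay at 300.3 CPM below FL birds at 339 to 341.5, inside the LL range.

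ACSBG2, a bubblegum-type acyl-CoA synthetase for long-chain fatty acids (chromosome 28, 1242565 to 1259239), was the member of this role with an unadjusted p under 0.05. Its level was 125.2, 91.0, 87.2 and 107.3 CPM in FL1 to FL4 and 72.8, 76.0, 68.3 and 86.7 CPM in LL1 to LL4. Every FL bird lay above every LL bird, although FL3 and LL4 nearly met. The log2 fold change was 0.44 (SE 0.13, p = 0.00733), and the edgeR adjusted p over all genes was 0.185, short of the threshold. ACSL4, which prefers arachidonate, and ACSL3, an enzyme of the endoplasmic reticulum and lipid droplets, had fitted log2 fold changes of 0.24 and 0.20 with overlapping lines. ACSF2, ACSF3 and ACSS3 lay between -0.10 and -0.07.

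The medium-chain synthetases were hardly detected. ACSM3 had 0 counts in all birds, which allows at most 0.233 to 0.698 CPM in a bird (3 counts). ACSM4 had 5 counts and ACSM5 31, of which 22 were in FL4, the bird with high muscle markers. ACSBG1, the other bubblegum family member, had 56 counts.

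Thioesterases cleave acyl-CoA back to the free acid. The 3 tested had fitted log2 fold changes from 0.09 to 0.34 and none passed the test. ACOT7 (chromosome 21, 579611 to 587669), a cytosolic long-chain thioesterase, had 16.9, 16.5, 23.2 and 25.9 CPM in FL1 to FL4 and 14.91 to 18.02 in LL birds (log2 fold change 0.34, edgeR adjusted p = 0.422). ACOT8, the peroxisomal thioesterase (chromosome 20, 10473288 to 10475947), overlaps 3 other features, averaged 19.7 ± 4.81 and 18.6 ± 1.795 CPM, and turned from 0.09 to -0.08 without FL4. ACOT12 had 0 counts.

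In the carnitine shuttle both members were tested. CROT (chromosome 2, 20582345 to 20602170), which makes medium-chain acylcarnitines in the peroxisome, averaged 122.9 ± 23.4 CPM in FL birds against 110.1 ± 23.2 in LL birds (log2 fold change 0.16, edgeR adjusted p = 0.767). CRAT, carnitine acetyltransferase (chromosome 17, 6051901 to 6062034), had 110.2, 103.4, 94.7 and 119.1 CPM in FL1 to FL4 and 90.5, 96.7, 84.6 and 86.2 in LL1 to LL4. The lines overlapped only in that LL2 lay above FL3. The log2 fold change was 0.26 (SE 0.10, p = 0.0266, edgeR adjusted p = 0.295). With flanks added, CRAT overlaps the feature Q5ZM56_CHICK, which had a log2 fold change of 0.23 (p = 0.0617, edgeR). No source used here says whether strand was used in counting, so the reads of the pair cannot be told apart.

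Mitochondrial beta-oxidation had 7 members, all tested, with a median log2 fold change of -0.01 and a range from -0.12 to 0.23. None had an unadjusted p under 0.05, and none had non-overlapping lines. ACAD9, ACADL and HADHB were among the HE genes. ACAD9 (chromosome 12, 5425912 to 5452632), an acyl-CoA dehydrogenase that also serves in complex I assembly, averaged 256.8 ± 28.8 CPM in FL birds against 270.6 ± 31.1 in LL birds. HADHB (chromosome 3, 107782580 to 107793339), the thiolase subunit of the trifunctional protein, averaged 243.2 ± 19.3 and 225.6 ± 13.9. Their log2 fold changes were -0.08 and 0.11 (edgeR adjusted p = 0.849 and 0.692). ACAD8, a dehydrogenase of valine breakdown, and ACAD10 had -0.01 and -0.12. ACADL, the long-chain acyl-CoA dehydrogenase, had 217.0 to 274.2 CPM in FL birds against 189.5 to 232.2 in LL birds (log2 fold change 0.21 ± 0.11 SE; edgeR adjusted p = 0.442).

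HADH, the short-chain 3-hydroxyacyl-CoA dehydrogenase, was even among FL birds and uneven among LL birds. Its level was 69.0, 75.0, 72.2 and 70.3 CPM in FL1 to FL4 and 96.8, 57.4, 54.0 and 87.8 CPM in LL1 to LL4. The FL birds lay within the range of the LL, where LL2 and LL3, the birds with high liver markers, were low and LL1 and LL4 high; the part of those markers in the result was not tested. The coefficient of variation over the tested members had a median of 11.8% in the FL and 13.0% in the LL, beside 15.6% and 15.4% over all genes tested. The enoyl-CoA hydratase domain genes ECHDC1, ECHDC2 and ECHDC3, named for their fold (ECHDC1 encodes ethylmalonyl-CoA decarboxylase in mammals), had log2 fold changes of 0.23, 0.02 and 0.11 and no call.

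FL4 was the highest of the 8 birds in 11 of the 40 tested members, among them ACOT7, ACOT8 and ACAD8. How often FL4 was highest over all genes tested was not counted, so this is not a trait shown for these members in particular. ECHS1 and ACOT11 are described here for the gap between FL4 and the other FL birds, which was seen before they were chosen. ECHS1, the short-chain enoyl-CoA hydratase (chromosome 6, 10495223 to 10496014, overlapping 2 other features with flanks added), had 11.34, 10.98, 10.99 and 17.03 CPM in FL1 to FL4 and 9.68, 11.7, 10.7 and 11.2 in LL1 to LL4. ACOT11, a thioesterase with a lipid-binding domain, had 3.71, 3.66, 3.12 and 12.4 CPM in FL1 to FL4 and 2.14, 6.20, 7.19 and 4.83 in LL1 to LL4. Without FL4 the log2 fold change of ECHS1 went from 0.23 to 0.04 (SE 0.15), and that of ACOT11 from 0.19 to -0.56 (SE 0.37). That of ACOT7 went from 0.34 to 0.21. FL4 was also the bird with muscle markers at 16180 CPM, and their part in these values was not tested.

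**Figure D2:**
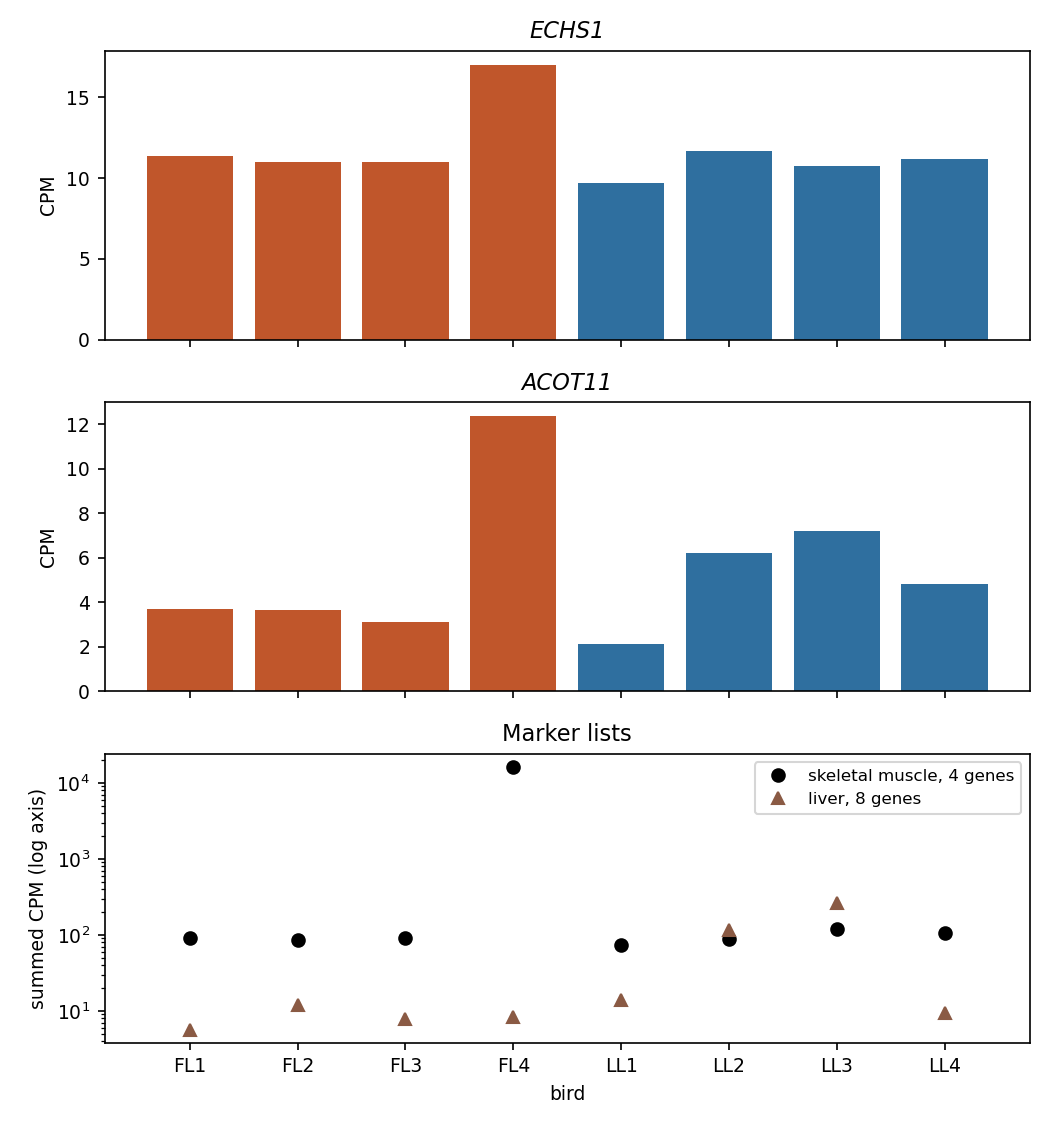
Level by bird (CPM, bars; FL orange, LL blue) of ECHS1 and ACOT11, and the summed CPM of skeletal muscle and liver markers on a log axis. FL4 is highest in both genes (17.0 and 12.4 CPM) and in muscle markers (16180 CPM), whereas LL2 and LL3 are highest in liver markers.

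Peroxisomal oxidation and coenzyme A breakdown showed the widest differences. ACOX2, the peroxisomal oxidase that in mammals acts on branched-chain and bile acid intermediates (chromosome 12, 12111793 to 12126203), had 21.1, 23.6, 19.3 and 15.9 CPM in FL1 to FL4. In LL1 to LL4 it had 9.97, 12.6, 11.4 and 11.05 CPM. Every FL bird lay above every LL bird; the nearest were FL4 and LL2. The line averages were 19.97 ± 3.22 (FL) and 11.2 ± 1.08 CPM (LL; SD, n = 4), from 70 to 194 counts a bird. An exact two-sided permutation test gave p = 0.0286, the smallest that 4 birds against 4 allow. Any gene with non-overlapping lines takes this value, and the lines did not overlap for 8.1% of all genes tested. The log2 fold change was 0.82 (SE 0.16, p = 2.9e-04) and the edgeR adjusted p was 0.0605, just outside the threshold. The study, which took the 24 runs as replicates, had reported ACOX2 as differentially expressed, higher in the FL.

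The ACOX2 difference kept its direction in each refit, and its call depended on the model. It lay between 0.74 and 0.92 with 1 bird left out and was 1.01 without FL4, LL2 and LL3 together (edgeR adjusted p = 0.0863). It was 0.91 from runs 2 and 3 alone (edgeR adjusted p = 0.0469), 0.92 without FL4 (edgeR adjusted p = 0.0346) and 0.82 with DESeq2 (adjusted p = 0.00101), each past the threshold. It was not past it with run 1 alone (0.75, edgeR adjusted p = 0.253), with total-count scaling (edgeR adjusted p = 0.102) or with the replicate number as a block (edgeR adjusted p = 0.129). With each of the other 7 birds left out the edgeR adjusted p was 0.0842 to 0.175. Of the flanking features, KCTD6 had a log2 fold change of 0.14 and FAM107A of -0.64, neither past the test.

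The other oxidase and the thiolase did not share the pattern of ACOX2. ACOX3, which oxidizes branched-chain acyl-CoA, had 10.6 to 13.3 CPM in FL birds against 9.40 to 16.5 in LL birds (log2 fold change -0.17, edgeR adjusted p = 0.767). ACAA1, the peroxisomal thiolase (chromosome 2, 4624020 to 4631776), averaged 100.6 ± 5.19 and 99.7 ± 5.48 CPM, a log2 fold change of 0.01 with an SE of 0.09, so that its level was measured closely and was near equal in the lines.

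**Figure D3:**
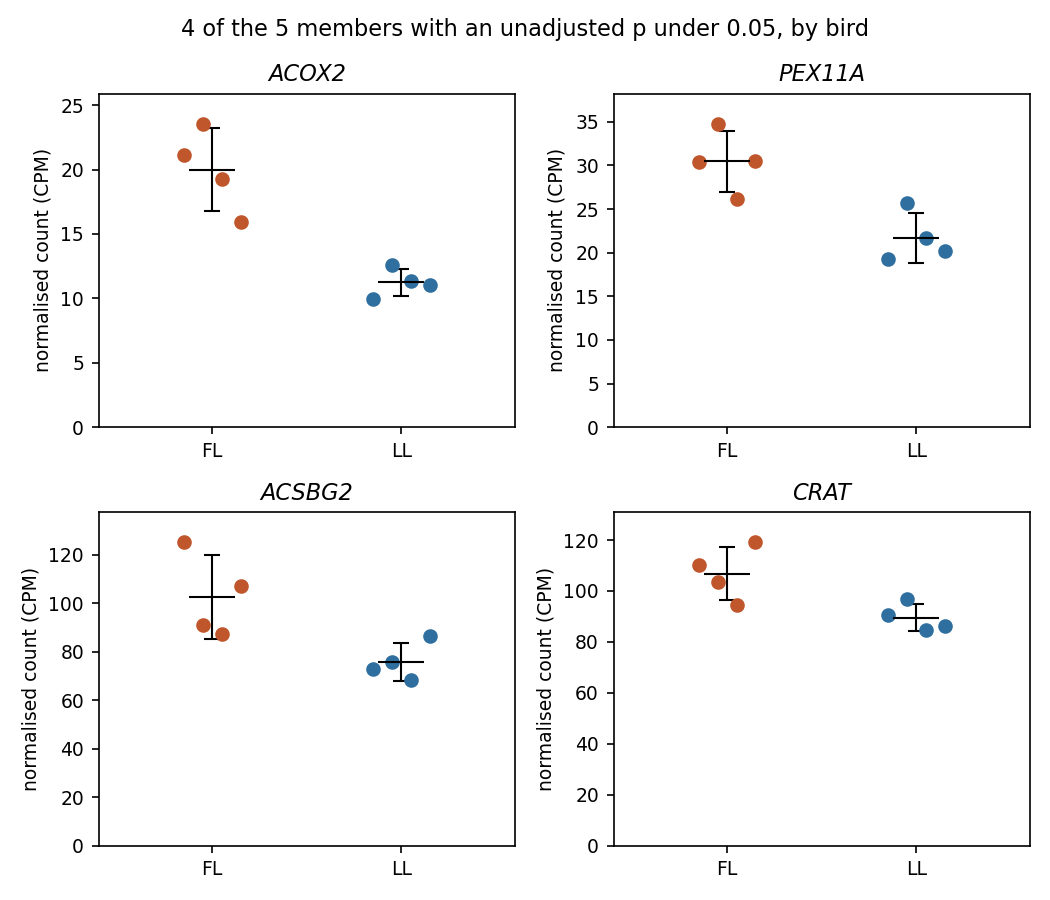
Level by bird (CPM) of ACOX2, PEX11A, ACSBG2 and CRAT in the FL (orange) and LL (blue); points are birds, and bars give the mean and SD (n = 4). The lines are apart in ACOX2, PEX11A and ACSBG2 and overlap in CRAT, where LL2 at 96.7 CPM lies above FL3 at 94.7 CPM.

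Peroxins numbered 13, of which 12 were tested, 9 with a fitted value above 0 and 3 below, with a median log2 fold change of 0.05 that became -0.01 under total-count scaling. PEX11A, a membrane protein that elongates and divides peroxisomes (chromosome 10, 14514745 to 14516982), was the member of this role with an unadjusted p under 0.05. Its level was 30.4, 34.8, 26.2 and 30.5 CPM in FL1 to FL4 and 19.2, 25.7, 21.7 and 20.2 CPM in LL1 to LL4. Every FL bird lay above every LL bird, FL3 and LL2 by the narrowest margin. The log2 fold change was 0.49 (SE 0.13, p = 0.00413, edgeR adjusted p = 0.156), and it was 0.49 from runs 2 and 3 alone. The next feature on the chromosome, PLIN1, a lipid droplet coat gene 4123 bases away, had a log2 fold change of 0.33 (p = 0.083, edgeR).

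The import machinery showed no such separation. PEX6, an AAA ATPase that helps to pull the import receptor back out of the membrane, had a log2 fold change of -0.14, and PEX26, its membrane anchor, 0.22 on a level of 0.229 to 3.85 CPM. PEX6 (chromosome 3, 16955559 to 16971308) averaged 57.9 ± 4.10 CPM in FL birds against 63.6 ± 7.36 in LL birds. The receptors PEX5 and PEX7 had 0.03 and 0.18, and the docking proteins PEX13 and PEX14 0.02 and 0.04. PEX14 (chromosome 21, 3736125 to 3803913) averaged 48.4 ± 5.13 and 47.0 ± 6.58 CPM. The ubiquitin ligase subunit PEX10 had 0.05, and the membrane biogenesis factors PEX3 and PEX16 0.12 and 0.19. The lowest edgeR adjusted p among these was 0.589, of PEX16. PEX5L, a mainly neuronal relative of PEX5 in mammals, had 40 counts in all and was not tested.

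NUDT7, a peroxisomal nudix hydrolase that in the mouse splits coenzyme A, is listed at 2 places of chicken build 2.1, on chromosome 11 (15310229 to 15313317) and on unplaced contigs (Un_random, 60395081 to 60398184). The chromosome 11 feature had 7.30, 7.09, 8.54 and 7.60 CPM in FL1 to FL4 and 1.71, 1.42, 1.66 and 9.39 CPM in LL1 to LL4. The unplaced feature had 1.85, 2.74, 1.22 and 2.03 CPM in FL1 to FL4 and 12.1, 12.4, 10.04 and 3.45 CPM in LL1 to LL4. The 2 features mirrored each other: birds with many reads at one place had few at the other, and LL4 resembled the FL birds rather than LL1 to LL3.

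The share of NUDT7 counts on the unplaced feature was 20.2% in FL1 (exact 95% binomial interval 12.2 to 30.4), 27.9% in FL2 (15.3 to 43.7), 12.5% in FL3 (5.88 to 22.4) and 21.1% in FL4 (13.4 to 30.6). It was 87.6% in LL1 (79.4 to 93.4), 89.7% in LL2 (80.8 to 95.5), 85.8% in LL3 (79.1 to 91.0) and 26.9% in LL4 (18.2 to 37.1). These intervals cover counting error only, and rest on 43 to 148 counts a bird. The birds formed 2 groups in this share, and LL4 fell in the group of the FL. The runs of a bird divide the counts of its single library, so they are not independent repeats of the separation. Taken run by run, the share was 75.0% or more in all 9 runs of LL1, LL2 and LL3. It was 50% or less in the 15 runs of the other 5 birds, the 50% being 2 of 4 counts in a run of FL2.

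In the fit, the unplaced feature had a log2 difference of -2.30 ± 0.40 (SE) at an edgeR adjusted p of 0.0462, and the chromosome 11 feature 1.12 ± 0.54 at 0.406. Without LL4 the 2 features had log2 fold changes of -2.57 and 2.24, both DE with an edgeR adjusted p of 0.0128. The call of the unplaced feature was lost without any other single bird: the edgeR adjusted p was 0.155 without FL1, 0.0852 without FL2, 0.138 without FL3, 0.0627 without FL4, 0.0698 without LL1, 0.137 without LL2 and 0.0994 without LL3.

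Summed over both places, NUDT7 had 9.16, 9.83, 9.77 and 9.63 CPM in FL1 to FL4 and 13.8, 13.8, 11.7 and 12.8 CPM in LL1 to LL4. Every LL bird, LL4 included, lay above every FL bird. The line averages were 9.60 ± 0.305 CPM (FL) and 13.0 ± 1.01 CPM (LL; SD, n = 4; exact two-sided permutation p = 0.0286, the smallest possible). That p follows from the non-overlap of the lines and adds nothing to it. The log2 fold change of the sum was -0.44 (SE 0.14, p = 0.0088), and its edgeR adjusted p over all genes was 0.195, between 0.213 and 0.399 when any bird was dropped. The difference of the sum was thus much smaller than that of either place, and it was not DE. Reads that matched more than 1 place were discarded by the authors, so a count at either place holds only reads that matched that place alone, and the sum is not a full count of the gene.

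**Figure D4:**
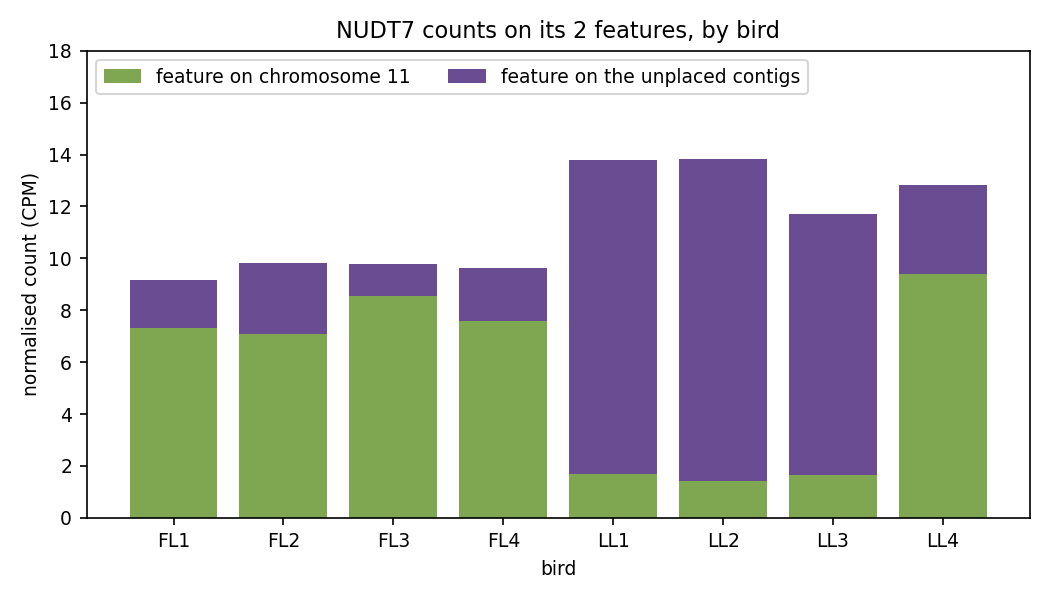
NUDT7 level by bird (CPM, stacked bars) on the chromosome 11 feature (green) and the unplaced feature (purple). LL1, LL2 and LL3 have most of their counts on the unplaced feature, whereas LL4 and the FL birds have most on chromosome 11; the total bar is 9.16 to 9.83 CPM in the FL and 11.7 to 13.8 CPM in the LL.

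NUDT7 was compared with other symbols listed more than once. Of 116 such symbols, 39 had exactly 2 places tested. By a limit set after its values were seen, NUDT7 was the single one with fitted values of at least 2-fold in opposite directions; its chromosome 11 value was itself not DE, and fell to 0.90, 0.89 and 0.85 on the log2 scale without LL1, LL2 and LL3. Smaller opposite values were fitted for several other symbols. Among them were MRPL35 (-0.44 and 0.28), NUDT5 (-0.52 and 0.19), SCRN3 (0.14 and -0.89), AKAP7 (0.71 and -0.175) and DNAJC19 (-0.34 and 0.31). In the reference table of the later assembly GRCg7b, NUDT7 has 1 entry.

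Enzymes of the same pathways that the naming rule missed were taken from a list of 37, of which 32 were matched and all 32 tested. None was DE by edgeR or DESeq2. The fitted log2 fold change was above 0 for 25 and below 0 for 7 (78.1% above, beside 50.5% of all genes), and the median was 0.10. With scaling to total counts alone, ACOT9, NUDT12 and SLC25A17 turned below 0 (-0.026, -0.022 and -0.039). Among those with the highest counts, both HE genes, were ACSL1, the main long-chain acyl-CoA synthetase of fat tissue (2541 ± 316 CPM in the FL, 2583 ± 125 in the LL) and catalase CAT, which removes the hydrogen peroxide that peroxisomal oxidation makes (853.4 ± 77.5 and 740.2 ± 85.5). Their log2 fold changes were -0.02 and 0.21, with edgeR adjusted p of 0.960 and 0.491.

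An unadjusted p under 0.05 was reached by 4 of these 32 (12.5%), all fitted higher in FL birds, beside 13.1% of all genes in either direction and 6.49% in that one. GNPAT, the peroxisomal enzyme that opens ether lipid synthesis, had 91.7, 91.0, 94.9 and 82.7 CPM in FL1 to FL4 and 79.2, 67.3, 61.2 and 74.0 CPM in LL1 to LL4. Its lines did not overlap, and the log2 fold change was 0.36 (SE 0.10, p = 0.00602, edgeR adjusted p = 0.178). NUDT19, another nudix hydrolase of coenzyme A, had 6.38 to 6.69 CPM in FL birds against 3.01 to 5.53 in LL birds, again without overlap, and a log2 fold change of 0.53 (edgeR adjusted p = 0.316). The thioesterase ACOT13 and the electron transfer flavoprotein dehydrogenase ETFDH had log2 fold changes of 0.53 and 0.31 with overlapping lines (edgeR adjusted p = 0.236 and 0.319). The carnitine palmitoyltransferases CPT1A and CPT2, which bracket the mitochondrial shuttle, had -0.29 and 0.12 with overlapping lines. CPT1A stood at 154.6 CPM in LL1 and 86.2 to 100.1 in the other LL birds, and its log2 fold change without LL1 was -0.07. The short-chain dehydrogenase ACADS, at 0.21, was the other gene of the list whose lines did not overlap (3 of 32 in all, 9.38%, beside 8.1% of all genes). FL4 had 68.3 CPM of ACADS and the other FL birds 51.67 to 51.78, just above the highest LL bird at 51.25, and without FL4, the bird with high muscle markers, the log2 fold change was 0.10.

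Of 7 regulators of these genes 0 were DE by edgeR and 1 by DESeq2, and the same 1 had an unadjusted p under 0.05 in edgeR (14.3%, beside 13.1% of all genes; 0.366% of all genes were DE by edgeR and 2.85% by DESeq2). RXRG, a retinoid X receptor that pairs with the peroxisome proliferator-activated receptors, had 38.9, 30.2, 18.7 and 43.0 CPM in FL1 to FL4 and 22.1, 14.9, 21.1 and 14.6 CPM in LL1 to LL4. FL3 lay within the LL range and the other FL birds above it. The log2 fold change was 0.85 (SE 0.25, p = 0.00643), with an adjusted p of 0.180 in edgeR and 0.0457 in DESeq2. The study had reported RXRG as higher in the FL both by sequencing, with runs as replicates, and by quantitative RT-PCR. PPARG, the adipogenic receptor and an HE gene, averaged 299 ± 40.3 and 277 ± 25.8 CPM (log2 fold change 0.11, edgeR adjusted p = 0.765), PPARD averaged 58.7 ± 5.91 and 53.0 ± 8.37 CPM (0.15), and RXRA 45.3 ± 9.71 and 47.5 ± 12.9 CPM (-0.07). PPARA, the receptor best known for inducing fatty acid oxidation in liver, was at 1.95 to 7.43 CPM and had a log2 fold change of 0.14 (SE 0.38).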

How the data were processed

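The authors trimmed reads and mapped them to chicken build 2.1 (Ensembl genes with 200-base flanks) in CLC Genomics Workbench, allowing few mismatches and discarding reads with several matches, and deposited the count of unique exon reads per gene and run; demultiplexing used CASAVA 1.8.2 per the labels. The deposited raw counts of 24 runs were used, those of the 3 runs of a bird summed; 28 scaled or mean columns and the authors' own fold changes and p-values were not used. Values are gene-level, so exons and introns were not separated, and CPM is not per length.

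Lines were compared with edgeR 4.0.16 (filterByExpr, TMM, glmQLFit, glmQLFTest; R 4.3.3) with Benjamini-Hochberg adjustment over 11187 genes; SE is the log2 fold change over the square root of F. The fit was tested on simulated data. Thresholds follow the study. DESeq2 1.42.0, other scalings, filters and run sets, runs as replicates, a replicate block and leaving out each bird were tried. Named were members and pathway genes that were DE, had an unadjusted p under 0.05, did not overlap (members), or had the highest mean CPM (2 in each role, 3 in each list), and untested members; the others named (NUDT7 on chromosome 11, ECHS1, ACOT11, HADH, ACADL, CPT1A, CPT2, ACADS, PPARA and the rest of each role) were chosen after their values were seen. Members and lists were chosen with earlier results of these data known.

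The description of 12 LL samples names the fat line, whereas title, source and line tag give LL, which was used. RNA kit and lane plan differ between the labels and the study's methods; the methods' lane plan is given. No sequence is shown. Some single genes counted in the totals are not reported here.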

Additional observations from a re-analysis of the deposited data

Results flagged for a closer look

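In groups of 4 birds, Dixon's ratio was compared with its 95% critical value. Chance alone flags about 5% of independent, normally distributed groups. Here 6 of 80 member-by-line groups (7.5%) held a bird farther from the others than that value. In the FL, these were ACSS2 in FL2 at 300.3 CPM (other FL birds 339 to 341.5), ACSS1 in FL4 at 101.7 CPM (121.7 to 123.5), ACOT11 in FL4 at 12.4 CPM (3.12 to 3.71) and ECHS1 in FL4 at 17.0 CPM (10.98 to 11.34). In the LL, these were ECHDC3 in LL1 at 26.9 CPM (20.02 to 20.71) and NUDT7 on chromosome 11 in LL4 at 9.39 CPM (1.42 to 1.71). FL4, with skeletal muscle markers at 16180 CPM, accounted for 3 of the 6. The 80 groups come from the same 8 birds, and the share flagged over all genes tested was not counted. No excess is therefore shown for these members in particular.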

How the results depend on the processing

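The 46 members' results rest on 4 birds a line, on 1 DE member close to the threshold, and on 2 NUDT7 features whose discarded shared reads are not known. The number of DE genes over the whole table, 41, was 319 with DESeq2, 27 with no filter beyond 1 count, 133 with runs 2 and 3 only, 1 with the first runs only, 1327 with the 24 runs as replicates, and from 2 to 65 with 1 bird left out. Leaving out FL4, LL2 and LL3 together, chosen after seeing the data, gave 0 by edgeR. DE members, 1 in the main comparison, numbered 2 with DESeq2, 4 with the 24 runs as replicates and from 0 to 2 with 1 bird left out. They numbered 0 with no filter beyond 1 count, with at least 10 counts in every bird, with the first runs only and without FL4, LL2 and LL3 together. The unplaced NUDT7 feature, the DE member of the main comparison, had 9 counts in FL3. The filter of at least 10 counts in every bird therefore removed it before testing, so that 0 is not a lost call. It was also filtered out with the 24 runs as replicates. Members with an unadjusted p under 0.05 in edgeR numbered 9 with runs as replicates and 4 to 7 in every other refit. Runs of 1 library are not separate birds, so those counts measure technical spread in part. Apart from that filtered feature, the cause of these shifts was not tested.

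The median log2 fold change of the members, 0.09, was 0.03 with total-count scaling, 0.016 without FL4, LL2 and LL3 together, and from 0.040 (without FL4) to 0.125 with 1 bird left out. Total-count scaling also moved the median of all genes tested, from 0.002 to -0.055. The members whose sign turned under it were at most 0.053 in size in the main comparison. The fitted sign turned for 6 of 40 members with total-count scaling, 6 of 38 with runs 2 and 3 only, 11 of 40 without FL4, LL2 and LL3 together, and 18 of 40 in at least 1 fit with a single bird left out, none of them over 0.22 in size in the main comparison. Among the genes named by the rule, it turned with total-count scaling for ECHDC2 (-0.043), PEX14 (-0.015) and ACAA1 (-0.043), with runs 2 and 3 for ECHDC2 (-0.006) and ACAA1 (-0.038), and with runs as replicates for ACAA1 (-0.008). Without FL4, LL2 and LL3 together it turned, among the same genes, for ACSS1 (0.039), ECHDC3 (-0.053), ECHDC2 (-0.042), ACSL1 (0.015) and RXRA (0.069). With 1 bird left out, values of genes named by the rule crossed 0 for ACSS1 (-0.130 to 0.017), ACOT8 (-0.079 to 0.181), ECHDC2 (-0.030 to 0.105), ACAD9 (-0.136 to 0.004), PEX14 (-0.026 to 0.121), ACAA1 (-0.018 to 0.046), ACSL1 (-0.094 to 0.036) and RXRA (-0.228 to 0.141). None of these genes was called in the main comparison.

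Birds with the same replicate number are not described as pairs. The correlations of their deviations from the line means were 0.23, -0.06, -0.11 and -0.06 for numbers 1 to 4. Over all pairs of an FL and an LL bird they ran from -0.35 (FL4 with LL1) to 0.31 (FL4 with LL3). FL4 and LL3 each had a lane of their own in run 1, and the part of the lanes in that value was not tested. With the replicate number as a block, 8 genes and 0 members were DE by edgeR, and 6 members had an unadjusted p under 0.05.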
